A study of Homo sapiens with 52 samples.

Results

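The genes that ERK signalling uses to restrain itself were followed through a small-molecule screen of fusion-positive rhabdomyosarcoma (FP-RMS) cells. They were chosen by name: the phosphatases DUSP4, DUSP5 and DUSP6, the Sprouty genes SPRY1, SPRY2 and SPRY4, the Spred genes SPRED1 and SPRED2, and the ETS transcription factors ETV4 and ETV5. All 10 were found in each of the 52 deposited tables, among 27043 gene names, and all 10 passed the filter for testing, a TPM (a transcript level scaled for gene length and for the size of the library) of at least 1 in 2 or more samples.

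In the RAS pathway, receptor signals pass through RAF and MEK to the kinase ERK, which enters the nucleus and switches on transcription. Part of that programme is feedback. DUSP proteins remove phosphate from MAP kinases, and DUSP6 acts on ERK in the cytoplasm while DUSP4 and DUSP5 act in the nucleus. Sprouty and Spred proteins dampen the pathway at the level of RAS and RAF, and ETV4 and ETV5 are factors whose own transcription rises with ERK activity. MEK inhibitors are therefore known to lower these genes within hours, and their mRNA is widely read as a measure of ERK output.

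All cells were FP-RMS cells carrying the PAX3-FOXO1 fusion, from 1 cell line as labelled. The screen held 44 samples taken after 6 h: 20 compounds with 1 sample at each of 2 doses, and 4 solvent controls, 2 at 0.1% and 2 at 0.2% DMSO. The titles of these samples say RH41 where their cell-line label says RH4. Doses were 10 and 1 µM, or 5 and 0.5 µM for LAQ824, Cpd50 and GSKJ4, and no label ties a dose to a DMSO concentration, so all 4 controls served both doses. Trametinib, a MEK1/2 inhibitor, was the reference for loss of ERK output.

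Sorted by the targets in the labels, 7 compounds formed the acetylation axis. They were LAQ824 (HDAC), Merck60 (HDAC1/2), MC 1568 (HDAC4/5), WT161 (HDAC6), OJI-1 (HDAC8), Bromosporin (bromodomains) and SGC-CBP30 (the CREBBP/EP300 bromodomain). The methylation axis held 11: UNC0638 (KMT1C, a histone H3 lysine methyltransferase also called EHMT2), EZ-005 (EZH2), UNC1999 (EZH1), SGC0946 (DOT1L), PFI-2 (SETD7), UNC-1215 (L3MBTL3), Cpd50 (Jumonji demethylases), GSKJ4 (JMJD3/UTX), and the LSD1 inhibitors GSKLSD1, LSD-519 and LSD-690. PFI-3 (SMARCA4) and trametinib belonged to neither. Outside the screen, the HDAC inhibitor N1302 at 1 µM had 1 sample and 1 DMSO sample at 6 h, and the HDAC1/2/3 inhibitor entinostat at 1 µM had 1 sample and 1 DMSO sample at each of 1, 6 and 24 h. These 8 samples carry RH4 in both labels.

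Promoter sequences are shown for DUSP6 and SPRY4, which trametinib lowered most, and for SPRY2, which HDAC inhibition lowered most. They are RefSeq reference sequence (GRCh38.p14), the 250 bases before the annotated start, written along the gene. Capitals mark the letters CGGAA, the core of an ETS-type site, and TGACG, part of the cyclic AMP response element, on either strand, and in these windows no match overlaps another. The windows lie on the minus strand, at chr12:89352502-89352751 for DUSP6, chr5:142324248-142324497 for SPRY4 and chr13:80341127-80341376 for SPRY2.
DUSP6: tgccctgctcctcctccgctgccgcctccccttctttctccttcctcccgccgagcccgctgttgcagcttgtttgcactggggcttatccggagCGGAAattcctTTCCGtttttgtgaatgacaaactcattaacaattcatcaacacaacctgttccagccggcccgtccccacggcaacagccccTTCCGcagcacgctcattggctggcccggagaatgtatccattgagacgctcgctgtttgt
SPRY4: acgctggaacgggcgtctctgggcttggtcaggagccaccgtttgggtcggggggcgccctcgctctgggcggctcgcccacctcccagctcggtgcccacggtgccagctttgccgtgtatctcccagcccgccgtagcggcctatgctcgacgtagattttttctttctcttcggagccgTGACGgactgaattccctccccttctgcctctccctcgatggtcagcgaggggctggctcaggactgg
SPRY2: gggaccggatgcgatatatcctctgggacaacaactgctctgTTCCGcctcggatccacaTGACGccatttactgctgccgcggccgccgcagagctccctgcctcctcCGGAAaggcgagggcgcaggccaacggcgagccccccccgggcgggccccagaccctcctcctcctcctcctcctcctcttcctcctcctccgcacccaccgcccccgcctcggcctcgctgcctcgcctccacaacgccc

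RefSeq windows were at hand for 6 of the 10 genes (10 windows). CGGAA occurred in 3 of the 10 windows, 1 each of DUSP6, SPRY1 and SPRY2, against 30.3% of 35116 windows of all genes. TGACG occurred in 2 of the 10, 1 each of SPRY2 and SPRY4, against 21.2% of all windows. The AP-1 letters TGANTCA were in 0 of the 10 windows, against 6.57% of all. The DUSP6 window held CGGAA 3 times and the SPRY4 window did not hold it. The SPRY2 window shown, 1 of 3 for that gene, held it 2 times.

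The label of the cells was checked against marker genes. Of 9 FP-RMS markers, MYOD1, MYOG, DES, SOX8, FGFR4 and PAX3 were at 1 TPM or more in all 52 samples, while CDH3 reached 1 TPM in 6. Of 5 markers of other cell types, PTPRC, PECAM1 and EPCAM stayed below 1 TPM in all samples. ALB was at 1 TPM or more in 7 samples (highest 2.99 TPM) and GFAP in 1 (1.6 TPM). The sum over the 5 was 0.341 to 4.68 TPM, highest under LAQ824. Depth, worked out from the TPM values, ran from 5737939 to 41415071 reads. It went with the flow cell: 28 samples, trametinib and UNC0638 included, came from 1 flow cell that held no DMSO sample and had a median of 10571890 reads.

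In DMSO the 10 genes were all expressed, over a range of levels. ETV5 had 85.3 ± 6.83 TPM, SPRY2 85.2 ± 5.79, SPRED2 72.6 ± 3.35, SPRY1 62.8 ± 4.0 and SPRED1 62.4 ± 2.70. DUSP6 had 43.3 ± 7.14 TPM, SPRY4 23.2 ± 4.05, ETV4 13.3 ± 1.24, DUSP4 12.9 ± 0.682 and DUSP5 5.32 ± 0.534. Errors are SDs over the 2 concentrations (n = 2), since over 10378 genes the variance left after concentration and flow cell was 1.02 times counting noise, so the samples of 1 concentration were counted as 1. ETV5 and SPRY2 cannot be ordered by these values, nor can SPRY1 and SPRED1, or ETV4 and DUSP4. Every gene was lower at 0.2% than at 0.1% DMSO, by 0.09 for SPRED1 to 0.34 for SPRY4 on the log2 scale. No member passed in limma at an adjusted p below 0.05 (0 of 10, 0% of 16359 genes called), with 6 members and 1548 genes at an unadjusted p below 0.05. That test took the 4 samples singly, so its p-values measure the spread between samples of 1 concentration.

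Trametinib lowered the feedback genes almost as a block. In a limma fit of log2(TPM + 1) over all 44 screen samples, with both doses of a compound as its samples and Benjamini-Hochberg adjustment over 16359 genes, 8 of the 10 were called lower than DMSO, against 3.08% of all genes. None was called higher, against 3.06%. The median change of the members was -1.9 and that of all genes 0.0147. A call here rests on 2 samples that differ in dose, and p-values measure the spread between such samples.

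DUSP6, the cytoplasmic ERK phosphatase, had 37.4, 39.0, 46.8 and 49.8 TPM in the 4 DMSO samples and 0.602 and 0.540 TPM at 10 and 1 µM trametinib. The treated values rest on 10 and 6 reads, and the ratios to the DMSO mean were 71.8-fold (95% Poisson interval 39.1 to 150.0) and 80.2-fold (36.8 to 218), covering counting error only. The fitted log2 change was -4.81 ± 0.45 (SE, limma adjusted p = 1.55e-07). SPRY4, a Sprouty inhibitor of RAS signalling, had 20.1, 20.5, 24.7 and 27.3 TPM in DMSO, 0 reads at 10 µM and 3 reads (0.172 TPM) at 1 µM. At 10 µM it was at least 201-fold lower than DMSO, taking 3 reads as the floor of that library (163-fold at the wider Poisson limit used for the other ratios), and at 1 µM 135-fold lower (46 to 652). The groups were far apart for both genes, and the lowest SPRY4 among the 38 other treated samples was 3.27 TPM, at 10 µM SGC-CBP30.

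ETV5 fell from 79.4 to 90.8 TPM in DMSO to 2.59 and 3.42 TPM, a log2 change of -4.43 ± 0.26 (adjusted p = 1.36e-11), the smallest p of the 10. ETV4 fell from 12.2 to 14.4 TPM to 1.6 and 1.51 TPM (-2.49 ± 0.27, adjusted p = 9.01e-07). For both ETS factors the groups were far apart. SPRED2 and the other Sprouty genes moved less. SPRED2 had 70.1 to 78.2 TPM in DMSO and 19 and 15.3 TPM under trametinib (-2.03 ± 0.25, adjusted p = 6.1e-06). SPRY2 changed by -1.77 ± 0.35 (adjusted p = 0.00184) and SPRY1 by -1.34 ± 0.33 (adjusted p = 0.011), and each kept more than 20 TPM at both doses.

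The least responsive genes were the nuclear phosphatases and SPRED1. DUSP4 went from 12.1 to 13.4 TPM in DMSO to 6.45 and 7.68 TPM (-0.78 ± 0.19, adjusted p = 0.00984). DUSP5 had 4.58 to 6.14 TPM in DMSO and 2.75 and 2.78 TPM with trametinib, and SPRED1 had 59.0 to 65.9 and then 36.7 and 39.4 TPM. Neither passed (DUSP5 -0.74 ± 0.31, adjusted p = 0.176, and SPRED1 -0.70 ± 0.23, adjusted p = 0.0662), although treated and control samples did not overlap. The dose made little difference: the largest step between the doses was 0.3, for ETV5. With 1 dose alone, 5 members were called at 10 µM, against 0.892% of all genes lower, and 6 at 1 µM, against 1.19%. Against the other compounds of the same flow cell, 9 members were called lower, with 3.01% of all genes. That reference includes UNC0638, whose 10 µM sample was high for most of these genes.

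**Figure D1:**
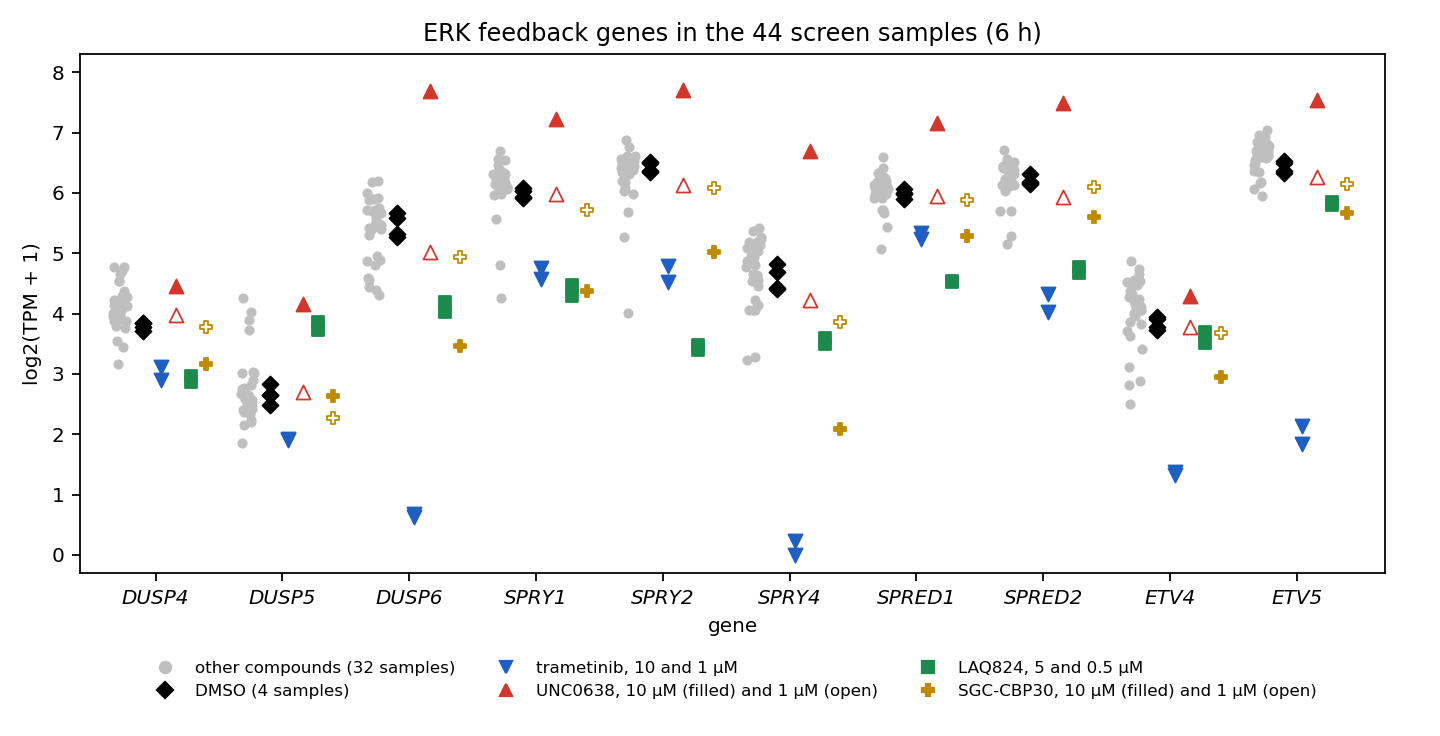
Level of each gene, as log2(TPM + 1), in the 44 screen samples, with DMSO as black diamonds, 4 compounds in colour and the other 32 treated samples in grey. Trametinib lies near 0 for DUSP6 and SPRY4, and UNC0638 at 10 µM is the highest point of DUSP6, SPRY1, SPRY2, SPRY4, SPRED1, SPRED2 and ETV5.

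Other genes of the pathway were read from a pair of lists. Of 19 genes of the cascade itself (RAS, RAF, MEK, ERK and their partners), 2 were lower and 1 higher under trametinib: KSR1, a scaffold of the cascade, by -0.73, MAP2K1, which encodes MEK1, by -0.58, and RRAS2, a RAS relative, by 0.37. KSR1 and MAP2K1 are named after their values were seen. Of 18 tested genes that ERK is known to induce in other settings, 8 were lower and 1 higher, with a median of -0.932. The largest decreases were those of CCND1, the D-type cyclin (-3.54), ETV1, the third PEA3-type ETS factor (-2.06), EPHA2, an ephrin receptor (-1.69), and FOSL1, an AP-1 subunit (-1.34). EPHA4, another ephrin receptor, was higher (0.50). IER3 and SPRY3 were on that list and did not pass the filter on low values.

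Which chromatin compounds act on the feedback genes as trametinib does was asked next. Over 190 pairs of a gene and 1 of the 19 other compounds, 15 were called lower than DMSO and 7 higher. In 10 compounds no member was called. The share of all genes called lower ranged from 0% for UNC-1215 to 29.5% for Bromosporin, and the share called higher from 0% for GSKJ4 to 32.4% for LAQ824, so that counts of members have to be read compound by compound. Compounds without a called member included EZ-005 (0.385% of all genes lower, 0.232% higher), UNC1999 (0.538% and 0.251%), SGC0946 (0.281% and 0.538%), PFI-2 (1.22% and 0.691%), PFI-3 (0.00611% and 0.0183%), GSKJ4 (0.00611% lower) and UNC-1215 (0.0672% higher). The 15 and 7 calls became 22 and 9 when both UNC0638 libraries, whose doses differed most, were left out of the fit.

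**Figure D2:**
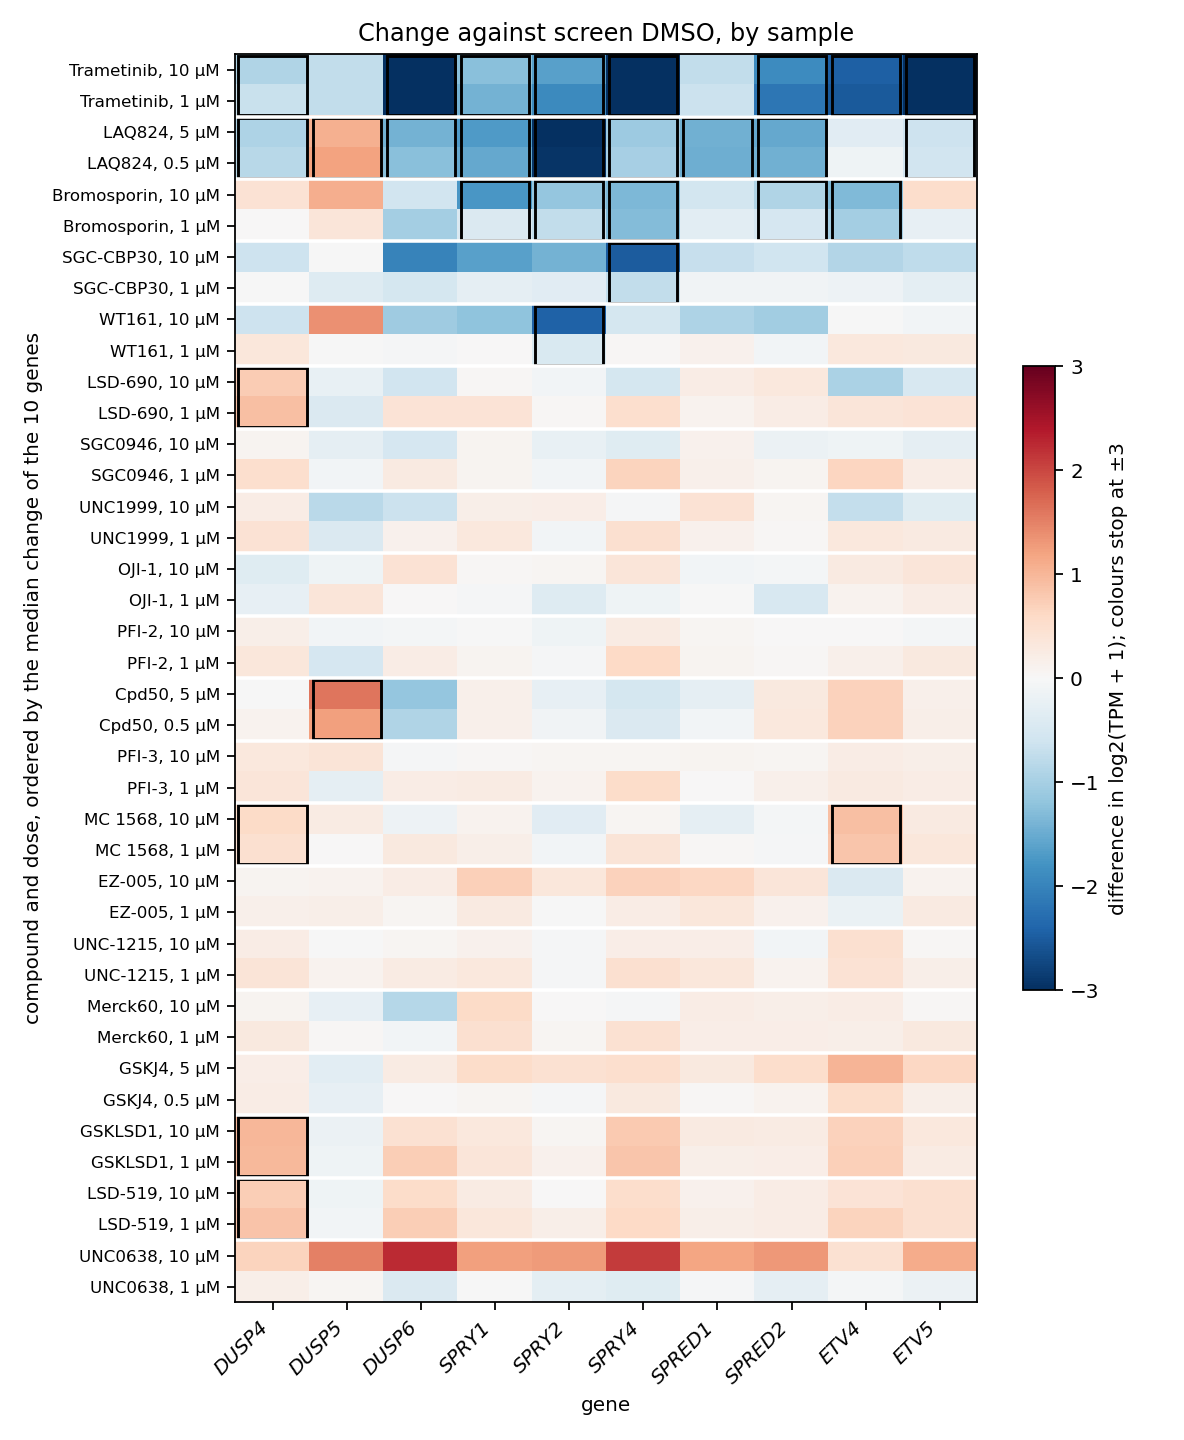
Difference in log2(TPM + 1) from the mean of the 4 DMSO samples for each gene (columns) in each treated screen sample (rows, high dose above low dose), blue lower and red higher, colours stopping at 3. Black frames mark pairs called in limma over both doses. The 8 frames of trametinib and the 9 of LAQ824 stand at the top, and UNC0638 at 10 µM is the reddest row.

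LAQ824, a hydroxamate HDAC inhibitor, lowered 8 members and raised 1, against 28.1% of all genes lower and 32.4% higher, and both doses gave nearly the same values. The order of the genes was different from that under trametinib. SPRY2 fell most, from 80.6 to 89.8 TPM in DMSO to 9.59 and 10.2 TPM at 5 and 0.5 µM (-2.98 ± 0.35, adjusted p = 6.17e-08). SPRY1 (-1.62 ± 0.33), SPRED2 (-1.48 ± 0.25) and SPRED1 (-1.46 ± 0.23) followed. DUSP6 had 15.4 and 17.4 TPM (-1.34 ± 0.45, adjusted p = 0.0125), SPRY4 had 10.2 and 11.1 TPM (-1.04 ± 0.44, adjusted p = 0.0431) and DUSP4 had 6.32 and 6.78 TPM (-0.88 ± 0.19). ETV5 changed by -0.61 ± 0.26 (adjusted p = 0.047), and ETV4, at 10.4 and 12 TPM, was not called (-0.23).

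DUSP5 went the other way under LAQ824. It had 12.2 and 13.5 TPM against 4.58 to 6.14 TPM in DMSO, a log2 change of 1.14 ± 0.31 (adjusted p = 0.0023). Tested directly against trametinib in the same fit, LAQ824 left DUSP6, SPRY4, ETV4, ETV5 and DUSP5 higher by 1.88 (DUSP5) to 3.83 (ETV5) and SPRY2 and SPRED1 lower, by 1.21 and 0.76 (adjusted p = 0.0125 and 0.0155). That is 5 members higher and 2 lower, against 29.5% and 26.9% of all genes. With the DMSO samples of LAQ824's own flow cell as reference, 6 members were lower, with 25.5% of all genes, and DUSP5 was higher, with 28.5%. SPRY4 and ETV5 were no longer called. The summed markers of other cell types were 3.95 to 4.68 TPM under LAQ824 and 0.351 to 0.712 TPM in DMSO, and the summed FP-RMS markers 1270 to 1360 TPM and 3320 to 3460 TPM, and their part in these results was not tested.

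Bromosporin lowered 5 members, against 29.5% of all genes, and raised none, against 16.5%. ETV4 fell to 4.69 and 6.05 TPM at 10 and 1 µM (-1.18 ± 0.27, adjusted p = 0.00104), SPRY1 to 18.1 and 46.3 TPM (-1.08 ± 0.33, adjusted p = 0.00813) and SPRY4 to 8.40 and 8.67 TPM (-1.33 ± 0.44, adjusted p = 0.0152). SPRY2 (-0.95) and SPRED2 (-0.71) were the other 2. DUSP6 was at 28.5 and 20.8 TPM, below the lowest DMSO sample, without passing, and ETV5 was at 124 and 71.5 TPM, on both sides of the DMSO samples. The read numbers of the 10 µM sample are mostly even, so its depth is uncertain by a factor of 2. With DMSO averaged per concentration 2 members were lower, SPRY1 and ETV4 (23.4% of all genes). With median-ratio scaling 3 were lower (25.1%) and 1 higher (20.5%). Without both UNC0638 libraries 7 were lower (33.3%) and 1 higher (19.3%). At 1 µM alone no member was called, against 8.26% of all genes lower and 4.22% higher. The summed markers were 1700 to 2380 TPM for FP-RMS and 0.716 to 3.19 TPM for other cell types, where DMSO had 3320 to 3460 and 0.351 to 0.712 TPM, and their part in the result was not tested.

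With SGC-CBP30 all 10 fitted changes were below 0 and 1 passed, that of SPRY4 (-1.61 ± 0.44, adjusted p = 0.0192; 6.11% of all genes were lower and 3.73% higher). No member passed with DMSO averaged per concentration, without replicate 1 of 0.1% DMSO, or with only the groups compared. Against the other compounds of the flow cell, trametinib and UNC0638 among them, 3 passed (5.54% of all genes lower). Without both UNC0638 libraries 4 passed (8.64%). The doses gave different values. At 10 µM, DUSP6 was at 9.99 TPM, SPRY4 at 3.27, SPRY1 at 19.7 and SPRY2 at 31.5, while at 1 µM they were at 29.5, 13.5, 51.6 and 66.7 TPM. Fitted on the 10 µM sample alone, which assumes that it varies like the other groups, these 4 were called lower (-2.0 for DUSP6, -2.49 for SPRY4, -1.62 for SPRY1 and -1.41 for SPRY2), against 7.84% of all genes. On the 1 µM sample alone 0 were called, against 0.385%. Among the 38 treated samples other than trametinib, 10 µM SGC-CBP30 gave the lowest DUSP6, SPRY4 and ETV5. ETV5 was still 49.7 TPM there, against 2.59 TPM with trametinib at the same dose. Beside these values, FP-RMS markers summed to 1550 to 2550 TPM and those of other cell types to 0.724 to 1.54 TPM under SGC-CBP30, and their part in the result was not tested.

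For WT161 the calls came mainly from the high dose. SPRY2 alone passed over both doses (-1.43 ± 0.35, adjusted p = 0.00176, with 18.8% of all genes lower and 23% higher). At 10 µM alone, SPRY2 (15.1 TPM), SPRY1 (26.8 TPM), SPRED2 (34.8 TPM), SPRED1 (32.6 TPM) and DUSP4 (8.0 TPM) were lower and DUSP5 (15.3 TPM) was higher, that is 5 and 1 members against 20.2% and 24.4% of all genes. At 1 µM alone no member was called, against 8.11% lower and 10.5% higher. ETV4 and ETV5 at 10 µM had 13.2 and 80.6 TPM, inside the range of the DMSO samples. Under WT161 the FP-RMS markers summed to 1470 to 2350 TPM and those of other cell types to 1.24 to 2.9 TPM, and their part in the result was not tested. With only the groups compared in the fit, SPRY2 did not pass (adjusted p = 0.0791).

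The remaining HDAC inhibitors of the screen showed little of this. Merck60 and OJI-1 had no member called, with 0.403% and 0.923% of all genes lower and 0.245% and 0.3% higher. MC 1568 raised DUSP4 to 19.7 and 18.3 TPM (0.53 ± 0.19, adjusted p = 0.0313) and ETV4 to 25.8 and 24.3 TPM (0.87 ± 0.27, adjusted p = 0.0161), against 28.3% of all genes higher and 4.92% lower. Neither was called with the DMSO samples of the compound's own flow cell, with DMSO averaged per concentration, or at either dose alone. Here the share of members is below that of all genes.

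**Figure D3:**
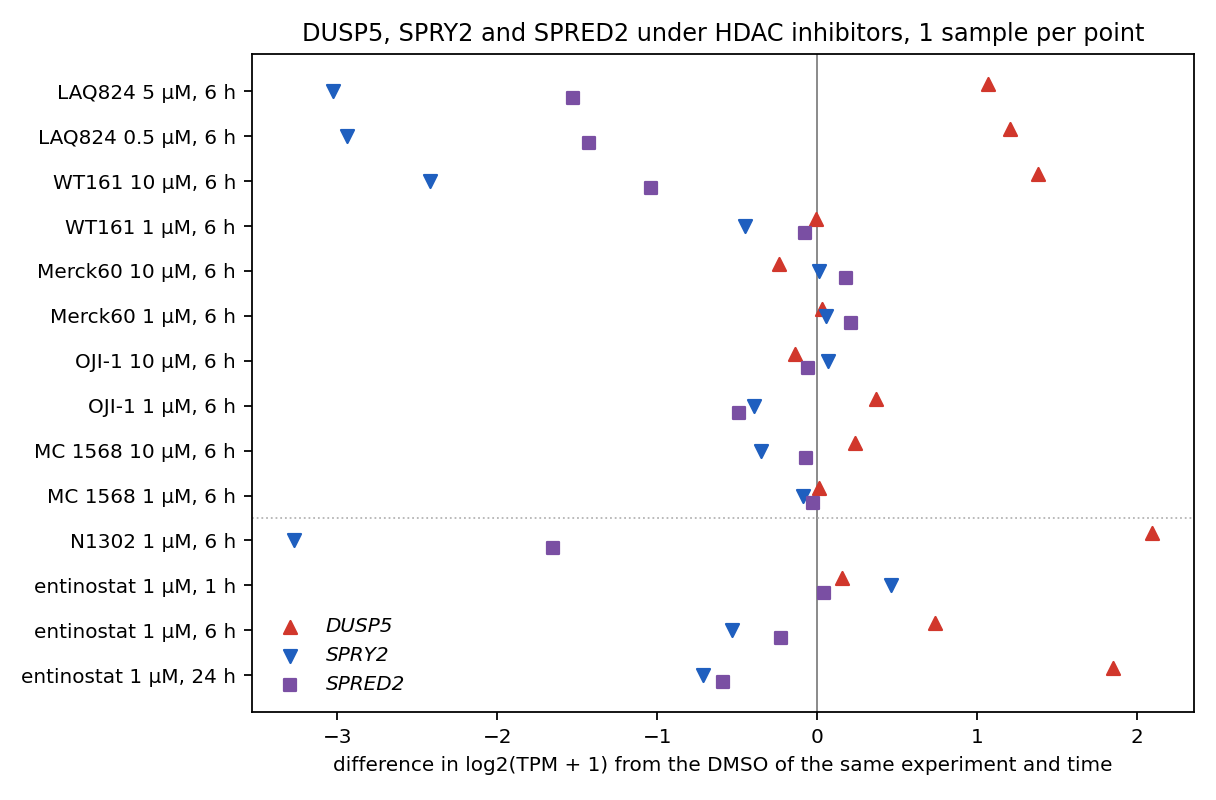
Difference in log2(TPM + 1) from the DMSO of the same experiment and time for DUSP5, SPRY2 and SPRED2 under each HDAC inhibitor, 1 point per sample, with the samples outside the screen under the dotted line. DUSP5 lies at 0.73 or higher and SPRY2 at -0.53 or lower under LAQ824, 10 µM WT161, N1302 and entinostat at 6 and 24 h.

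N1302 and entinostat have 1 sample per group, so there is no test and only changes of 2-fold or more are counted. Under N1302 at 6 h, 5 members were past 2-fold lower, against 19.3% of all genes, and 2 higher, against 11.6%. SPRY2 was at 10.1 TPM against 106 TPM in its DMSO sample (-3.27), SPRY1 at 17.2 against 91.9 (-2.35), SPRED1 at 6.74 against 28.8 (-1.94), SPRED2 at 12.9 against 42.7 (-1.65) and DUSP6 at 5.99 against 17.5 TPM (-1.41). DUSP5 was at 23.2 against 4.68 TPM (2.09), and ETV4 at 4.80 against 1.68 TPM (1.11), the latter on 82 and 41 reads. SPRY4 (-0.42) and ETV5 (-0.10) changed less than 2-fold. The DMSO sample matters here: the 6 h DMSO sample of the time course had ETV4 at 13.4 TPM and SPRY4 at 21.6 TPM. The N1302 DMSO sample had 1.68 and 6.43 TPM, while its SPRY1 and SPRY2 were the higher ones. ETV4 under N1302 thus lay above its own DMSO sample and below that of the time course.

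Entinostat moved fewer of them. At 1 h no member was past 2-fold (0.581% of all genes lower, 0.66% higher), nor at 6 h (0.947% and 5.13%). At 24 h DUSP5 alone was, higher, with 16.4% of all genes higher and 6.06% lower. DUSP5 was at 4.10, 7.72 and 14.8 TPM at 1, 6 and 24 h against 3.58, 4.25 and 3.39 TPM in the DMSO of those times. SPRY2 was above its DMSO sample at 1 h (87.3 against 63.0 TPM) and below it at 6 h (46.7 against 68.0 TPM) and 24 h (40.9 against 67.7 TPM). DUSP6 stayed between 31.5 and 40.2 TPM with entinostat and between 33.5 and 39.4 TPM in DMSO.

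The opposite direction was seen with UNC0638 at 10 µM. There DUSP6 was at 205 TPM, SPRY2 at 208, ETV5 at 186, SPRED2 at 179, SPRY1 at 148, SPRED1 at 143 and SPRY4 at 102 TPM, and each of these 7 was the highest of the 44 screen samples. DUSP5 (16.9 TPM), DUSP4 (20.9 TPM) and ETV4 (18.6 TPM) were above every DMSO sample as well. At 1 µM the same genes lay near DMSO, with DUSP6 at 31.6, SPRY2 at 69.3, ETV5 at 75.6 and SPRY4 at 17.6 TPM, all 4 below the lowest DMSO sample.

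Because the doses disagreed, no member was called over both, against 6.33% of all genes higher and 18.9% lower, with changes of 0.19 (ETV4) to 0.90 (DUSP6). Fitted on the 10 µM sample alone, 9 of 10 were higher, against 17.3% of all genes, and none was lower, against 29.9%. DUSP6 rose by 2.23 ± 0.43 (adjusted p = 0.000116), SPRY4 by 2.10 ± 0.43 (adjusted p = 0.000239), DUSP5 by 1.51 ± 0.33 (adjusted p = 0.000477) and SPRED2 by 1.29 ± 0.23 (adjusted p = 4.16e-05). ETV4 was the exception (0.45). At 1 µM alone none was called, against 0.556% higher and 1.13% lower. The 10 µM values stand on 1 library of 6849916 reads, and the fit takes its spread from the other groups. Under UNC0638 the summed markers were 2080 to 2530 TPM for FP-RMS and 0.962 to 1.47 TPM for other cell types. In DMSO they were 3320 to 3460 and 0.351 to 0.712 TPM, and under trametinib 3690 to 3850 and 0.928 to 1.19 TPM. The part of these markers in the result was not tested.

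Tested against trametinib in the common fit, all 10 members were higher under UNC0638, with 5.12% of all genes higher and 16.1% lower. The differences ran from 1.21 ± 0.22 for DUSP4 to 5.71 ± 0.52 for DUSP6. Trametinib itself lowered 8 members, and no member was called for UNC0638 against DMSO in this fit. The test therefore cannot tell a rise under UNC0638 from no change. Both compounds were sequenced on the same flow cell. With the other compounds of that flow cell as the reference in place of DMSO, 8 members were higher over both doses, against 7.2% of all genes higher and 22.8% lower, a reference that includes trametinib itself.

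**Figure D4:**
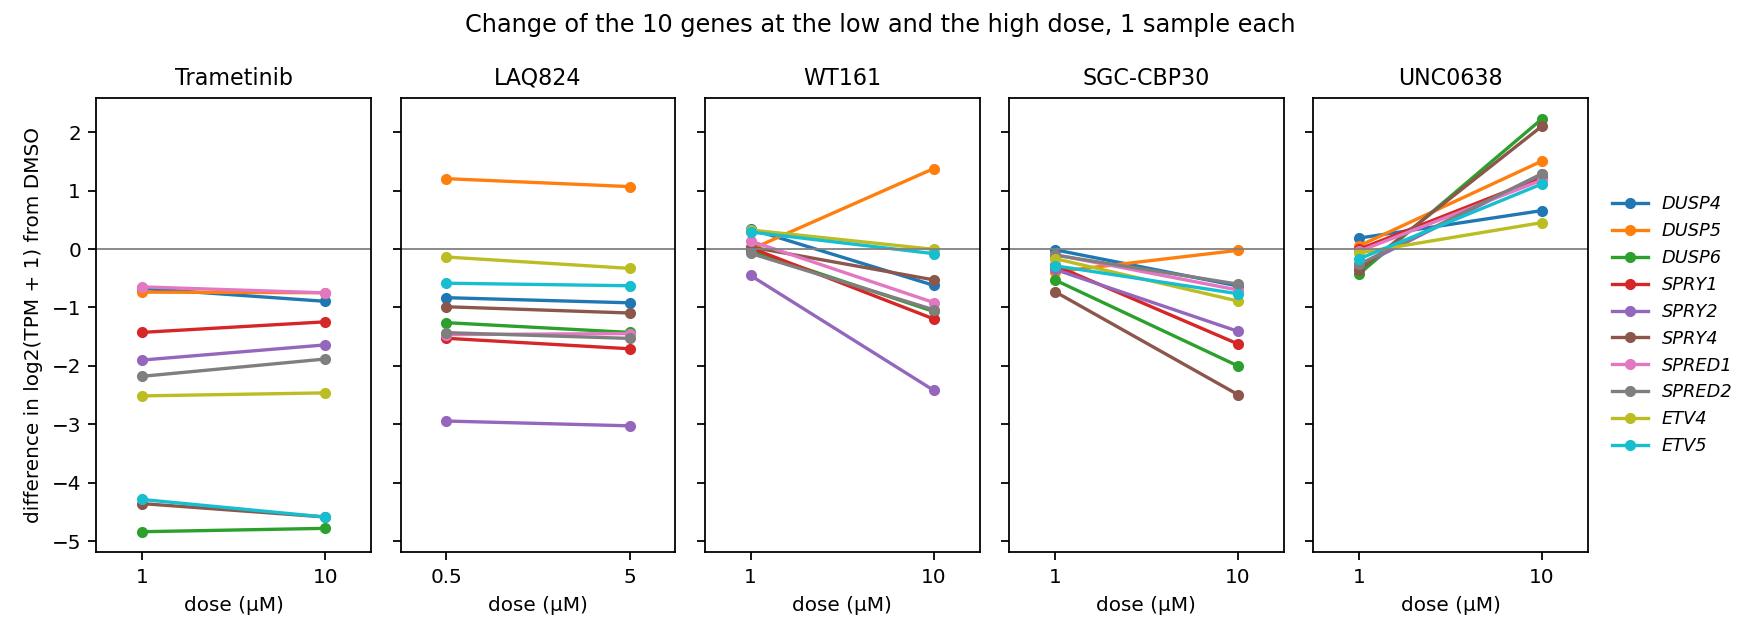
Difference in log2(TPM + 1) from DMSO at the low and the high dose for 5 compounds, 1 line per gene and 1 sample per point. Trametinib and LAQ824 are flat, 9 of 10 genes lie lower at 10 µM under WT161 and SGC-CBP30, DUSP5 being the exception, and all 10 lie higher at 10 µM under UNC0638.

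The list of other ERK-induced genes was read at the same dose. Of the 18 tested, 11 were called higher and 0 lower at that dose, with a median of 1.41 (all genes: 17.3% higher, 29.9% lower, median -0.174). EGR1 (6.59) and FOS (5.16), both immediate early genes, and MAFF (4.0), a small MAF factor, changed most, and are named after their values were seen. The list did not move as one: CCND1 (-0.94, adjusted p = 0.116) and MYC (-0.48, adjusted p = 0.155), which trametinib lowered, were not called, and MYC too is named after its values were seen. Of the 19 cascade genes 9 were higher and 1 lower.

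The other increases were narrower. All 3 LSD1 inhibitors raised DUSP4 in the common fit, where no other member was called. DUSP4 had 26.4 and 26.3 TPM with GSKLSD1 (0.98 ± 0.19, adjusted p = 0.00117), 22.3 and 24.2 TPM with LSD-519 (0.81 ± 0.19, adjusted p = 0.0197) and 22.3 and 25 TPM with LSD-690 (0.83 ± 0.19, adjusted p = 0.00932), against 12.1 to 13.4 TPM in DMSO. These 6 samples were the highest of the 44 for DUSP4, although 29 of the 38 treated samples other than trametinib lay above the highest DMSO sample. With DMSO averaged per concentration the calls for LSD-519 and LSD-690 were lost, and neither was called at 1 dose alone. Under GSKLSD1, DUSP4 was called at the low dose alone (0.98). It was not called at the high dose alone, where the change was 0.99. With only the groups compared in the fit, 8 members were higher under GSKLSD1, 7 under LSD-519 and 2 under LSD-690, against 28.7%, 13.3% and 15.3% of all genes. The shares of all genes called were 6.58% higher and 1.3% lower with GSKLSD1, 1.57% and 0.165% with LSD-519, and 2.67% and 1.36% with LSD-690. Against the other compounds of their flow cell, LSD-519 and LSD-690 still raised DUSP4 (0.69 and 0.72). That reference includes trametinib, which lowered DUSP4, and the other of these 2. GSKLSD1 has no such reference. Cpd50, the Jumonji inhibitor, raised DUSP5 alone, to 18.2 and 13.9 TPM (1.42 ± 0.31, adjusted p = 0.00209, with 5.22% of all genes higher and 5.73% lower), while DUSP6 was at 18.8 and 22.5 TPM (-1.03, adjusted p = 0.166).

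In the direct test against trametinib 153 of 190 pairs differed, 151 of them higher (72 pairs differed with only the groups compared in the fit), where the share of all genes higher than under trametinib ran from 1.15% (EZ-005) to 29.5% (LAQ824). A compound that leaves these genes unchanged also comes out higher, since trametinib itself lowered 8 of them. PFI-3, GSKJ4 and UNC-1215 had no member called against DMSO and still had 8, 8 and 9 higher here. The counts therefore cannot tell opposing trametinib from no change. The counts of members were 9 for EZ-005 (1.15% of all genes higher, 1.09% lower), UNC1999 (1.67% and 2.18%), Merck60 (2.22% and 1.56%), UNC-1215 (2.95% and 1.69%), GSKLSD1 (9.35% and 3.05%) and Cpd50 (6.52% and 8.67%). They were 8 for PFI-3 (1.66% and 1.86%), GSKJ4 (2.37% and 1.75%), PFI-2 (2.67% and 2.44%), LSD-690 (2.77% and 1.4%), SGC0946 (2.95% and 1.93%), LSD-519 (3.49% and 2.13%) and MC 1568 (24.3% and 5.47%). They were 7 for OJI-1 (1.84% and 5.51%), Bromosporin (13.7% and 26.3%) and WT161 (19.3% and 17%), and 5 for SGC-CBP30 (2.18% and 6.06%). DUSP6, SPRY4, ETV4 and ETV5 were higher than under trametinib with all 19 compounds. SPRED1 and DUSP5, the members trametinib did not significantly lower, differed in 7 and 5 compounds. SGC-CBP30 had the most pairs that were not called, 5, namely DUSP4, DUSP5, SPRY1, SPRY2 and SPRED1, with differences of 0.30 to 0.89, which does not show that the 2 compounds act alike.

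The axes were compared with compounds as units, the mean of both doses each. No member differed at an adjusted p below 0.05 (0 of 16359 genes called, 0%), while 7 members and 5018 genes had an unadjusted p below 0.05. The 7 had adjusted p between 0.0568 and 0.0814, with SPRY2 at -1.0 ± 0.29 and SPRED2 at -0.65 ± 0.16 (acetylation minus methylation). The count was 7 without MC 1568, 6 without Merck60, 6 without OJI-1 and 0 without any other compound. The shares of all genes in these refits are not given here, so the counts are not read as a result about the members. At the high dose alone 4 members were lower on the acetylation axis, SPRY2 (-1.33 ± 0.36), SPRY1 (-1.12 ± 0.30), SPRED2 (-0.85 ± 0.23) and SPRED1 (-0.83 ± 0.21), against 4.47% of all genes, with adjusted p between 0.0364 and 0.0384, and none was higher, against 5.4%. These calls were lost, all 4 of them, when any 1 of 12 of the 18 compounds was left out, LAQ824, WT161 and Bromosporin among them. In each of those refits 0% of all genes were called lower, and SPRY2 stayed between -1.02 (without LAQ824) and -1.37 (without SGC0946). The count was 4 without UNC0638 (2.94% of all genes) or Cpd50 (2.62%) and 3 without SGC-CBP30 (5.07%). It was 5 without MC 1568 (10.1%) or Merck60 (9.76%) and 6 without OJI-1 (9.98%). At the low dose alone 0 were called (0%). ETV4, ETV5 and DUSP5 did not reach an unadjusted p below 0.05 over both doses or at either dose. In limma no member passed for the dose step within either axis or for its difference between them (0% of all genes in each). At an unadjusted p below 0.05 there were 3 members and 3773 genes for acetylation compounds, 0 and 1503 for methylation compounds, and 3 and 2553 for the difference.

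The members varied together over the 44 screen samples with 1 exception. Pearson's r between a gene's log2(TPM + 1) and the mean of the other members was 0.73 to 0.95 for 9 genes and 0.0222 for DUSP5. These are descriptions over samples that share compounds and flow cells. Among 11079 other genes with a mean of at least 5 TPM, outside the members and the pathway lists, the closest to the members' mean were EMP1 (r = 0.92), EN2 (0.919), FHL2 (0.886), DTX4 (0.883) and LINC01480 (0.877). By rank the order was different: Spearman's rho was 0.795, 0.613, 0.787, 0.856 and 0.697 for the same genes, lowest for EN2.

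Gene spans in the deposited tables are in build hg19. DUSP6 lies at chr12:89741602-89746636, SPRY4 at chr5:141689992-141704620, SPRY2 at chr13:80910111-80915250 and ETV5 at chr3:185764106-185826901, all on the minus strand, and DUSP5 at chr10:112257625-112271302 on the plus strand. SPRY4 overlaps SPRY4-IT1, which has a row of its own, and how reads were divided between the 2 is not given in the sources used here.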

How the data were processed

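RNA-seq was analysed from 52 gene tables. Per the study's methods, the authors selected poly-A RNA, mapped it to hg19 (STAR) and quantified genes (RSEM). What they deposited is TPM, separately for each sample. Values of all 23645 detected genes were whole multiples (tolerance 0.01 reads) of 1 step per gene and 1 scale per sample, which gave read numbers, used to describe depth only, and 3 libraries (10 µM Bromosporin, Merck60 and PFI-2) with mostly even numbers are uncertain by a factor of 2.

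Tests used limma 3.58.1 in R 4.3.3 (trend) on log2(TPM + 1), which understates changes of low genes, with 23 residual degrees of freedom. Python 3.11.15 did the rest. The members, lists and tests were chosen with earlier results of these data known. All members are named, from the pathway lists the 4 genes changed most in each direction under trametinib, and the 5 genes most like the members, beside a few list genes chosen after their values were seen. Nothing says that samples of a group are separate cultures, so p-values may measure technical spread. DMSO samples with the same replicate number share a flow cell, and deviations of same-numbered samples correlated at 0.0719. The flow cell was still visible in DMSO: over 10378 genes its variance was 4.08 times counting noise, and that of concentration 3.55 times. The fits were tested on simulated data. Alternatives covered pseudocount, scaling, filters, call rule, samples in the fit, flow cell and samples left out. One marker of another cell type is not reported here and is in no sum.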

Additional observations from a re-analysis of the deposited data

Results flagged for a closer look

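SPRED1 under LAQ824, a log2 change of -1.46, stood below the other 6 acetylation-axis compounds, the next being Bromosporin at -0.44. The gap between them made up 0.612 of the range of the 7 compounds. Chance alone marks about 1 in 20 such groups, and 20 groups were looked at (10 genes, in DMSO and in the acetylation axis).

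At the high dose alone, the effects of the axes differed for 4 genes by a test of the difference itself. SPRY2 had -1.33, SPRY1 -1.12, SPRED2 -0.85 and SPRED1 -0.83 (acetylation minus methylation, limma adjusted p between 0.0364 and 0.0384). UNC0638, whose 10 µM sample holds the highest SPRY1, SPRY2, SPRED1 and SPRED2 of the screen, belongs to the methylation axis. Without it the same 4 genes were called, with 2.94% of all genes lower, at -1.22 for SPRY2, -1.03 for SPRY1, -0.753 for SPRED2 and -0.742 for SPRED1. With any 1 of 12 other compounds left out 0 were called, and 0% of all genes were lower.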

How the results depend on the processing

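Trametinib's 8 calls were 5 to 6 when 1 of its samples was left out, 6 with the DMSO samples averaged per concentration, 7 with a log2 change of at least 1, and 8 to 10 under the other alternatives. The 15 decreases over the other compounds were 9 with the DMSO samples averaged, 5 (without the high doses) to 18 (without the low doses) when 1 dose was left out, and 10 to 22 otherwise. The lowest of these, 10, left out the 3 libraries of mostly even read numbers, and the 22 left out both UNC0638 libraries, alternatives chosen after seeing the data. The 7 increases were the least stable count: 11 with median-ratio scaling, 2 with a log2 change of at least 1, 29 with only the groups compared in the fit, 3 with the DMSO samples averaged, 14 with a reference of the same flow cell (17 compounds, 6 calls over those against DMSO), and 2 to 13 when 1 sample was left out. The 153 pairs that differed from trametinib were 72 with only the groups compared. The shares of all genes moved with the setting as well, so these counts do not describe the members alone. With only the groups compared, the share lower under trametinib went from 3.08% to 14.5%. The share higher went from 6.58% to 28.7% under GSKLSD1 and from 28.3% to 47.5% under MC 1568. Under UNC0638 the share lower fell from 18.9% to 0.972%. The axis count of 0 was 5 with a mean TPM of at least 5, 4 at the high dose alone and 0 to 7 when 1 compound was left out (0 to 6 at the high dose alone, an alternative added after seeing the data). The shares of all genes beside the 5 and the 0 to 7 are not given here, so these counts are not read as a result about the members. Under entinostat at 6 h, 1 member was past 2-fold, in place of 0, with both RH4-titled 6 h DMSO samples averaged. The causes were not tested beyond what each alternative's construction shows.

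Of the 30 gene and compound pairs called over both doses, 0 changed sign under any alternative run. The fewest kept their call at 1 dose alone, 13 of 30 without the high doses and 18 of 30 without the low doses, and 18 of 30 kept it with the DMSO samples averaged. Changes under UNC0638 depend on the dose. Its values with 1 sample left out ran from -0.43 to 2.23 for DUSP6, -0.0052 to 1.22 for SPRY1, -0.29 to 1.28 for SPRY2, -0.36 to 2.10 for SPRY4, -0.040 to 1.18 for SPRED1, -0.26 to 1.29 for SPRED2, -0.067 to 0.45 for ETV4 and -0.17 to 1.11 for ETV5, each reversed at 1 µM.

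With the replicate number as a block, 0 members differed between 0.2% and 0.1% DMSO, as without it (0), and the pairing changed no call. Scaling shifted the 10 µM UNC0638 sample by 0.132 and N1302 by 0.372 (log2). Depth limits the trametinib values of DUSP6 and SPRY4, which rest on 0 to 10 reads.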

Other observations

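The 2 DMSO samples taken at 6 h outside the screen, both titled RH4, differed in these genes. In the N1302 experiment DUSP6 was at 17.5 TPM, SPRY4 at 6.43, ETV5 at 31.1 and ETV4 at 1.68 TPM, where the time course had 39.4, 21.6, 62.7 and 13.4 TPM. SPRY1 and SPRY2 lay the other way, at 91.9 and 106 TPM against 63.5 and 68.0 TPM. DUSP5 (4.68 and 4.25 TPM) and SPRED1 (28.8 and 28.7 TPM) were close. There is 1 sample on each side and no test.

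LSD-690 gave different levels of the ETS factors at its doses: ETV4 was at 6.35 TPM at 10 µM and 17.5 TPM at 1 µM, and ETV5 at 60.6 and 113 TPM. UNC1999 did likewise, with ETV4 at 7.68 and 16.8 TPM. None of these was called at either dose.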
